A study of Mus musculus with 4 samples.

Results

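The conjugation enzymes of phase II drug metabolism were described in the liver of Clock mutant mice at 4 circadian times. A gene was taken as a member when the RefSeq ID of its transcript maps to a symbol beginning with Ugt1a, Ugt2, Ugt3, Sult, Gsta, Gstm, Gstp, Gstt, Gstk, Gstz, Gsto or Mgst, and each gene was represented by the transcript with the highest mean. This gave 65 genes of the 21058 with a RefSeq symbol. Of these, 46 had a mean of at least 100 reads over the 4 libraries and are called measured, as were 8853 genes in all, and the other 19 were too low for ratios. The measured genes were 8 UGT1A genes, 9 UGT2 and UGT3 genes, 8 sulfotransferases, 19 soluble glutathione transferases and 2 microsomal glutathione transferases (MGST).

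All 4 libraries came from C57/BL6 mice that carried the ClockΔ19 mutation, the Scg2:tTA driver and the tetO::Clock-HA transgene, so no library is a control for any of these alleles. Scg2:tTA expresses a doxycycline-sensitive activator from the Scg2 promoter, and doxycycline, given to all animals at 30 ug/ml in the water from 3 days before darkness, turns tetO::Clock-HA off. After entrainment to 12 h of light and 12 h of dark, livers were taken in constant darkness at CT22, CT28, CT34 and CT40, hours of circadian time. Each time is 1 polyA library from the pooled RNA of 3 animals, whose age and sex the labels do not give, so the comparisons below are between libraries, carry no test and have no replicate check.

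Phase II enzymes attach a polar group to drugs, hormones and breakdown products, after which bile or urine can carry them away. UDP-glucuronosyltransferases (UGT) use UDP-glucuronic acid, sulfotransferases (SULT) use the sulfate donor PAPS, and glutathione transferases (GST) use glutathione. In mouse liver many of these genes respond to xenobiotic receptors such as CAR and PXR and to the oxidative stress factor NRF2, several differ between the sexes, and the clock-output factors DBP, TEF and HLF are known to act on this system.

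Gene reads came to between 16760665 and 19283322 per library. The libraries differed in signs of RNA quality and composition that touch the ratios below. From CT22 to CT40, mitochondrial reads per 100 gene reads were 18.2, 10.2, 6.74 and 6.49, and intron reads 23.7, 19.0, 16.5 and 17.4. Of the variance of log2 deviations from each gene's mean, a joint trend in GC content and length accounted for 33.2% in the CT22 library, then 1.13%, 16.7% and 13.8% in time order. Coverage of the 5' part of 2001 long genes over that of the 3' part had median log2 values of 0.20, 0.48, 0.71 and 0.83. Reads of each part were summed over its exons, so a read that spans exons can count more than once. For Gstk1 at CT22, the 3' part held 5746 scaled reads and the whole transcript 2715. The same holds for values of the 3' part given below. Of 9 measured hepatocyte markers, 1 (Apoc1) had a range of 2-fold or more, and their summed level was 70205 to 84706 RPKM (reads per kilobase, scaled to library size). Of 9 measured sinusoidal endothelial markers, 5 were at least 2-fold lower at CT22 than at CT34, against 3.77% of all measured genes. The summed levels of that list were 51.9, 61.0, 100.4 and 63.7 RPKM in time order. In these bulk libraries fewer cells of a type and less RNA per cell cannot be told apart. The GC and length trend was not removed from the marker values. A range of 2-fold or more was found in 12.6% of all measured genes. The 2-fold ranges over the 4 times numbered 1 of 3 measured cholangiocyte markers, 4 of 9 for Kupffer cells, 2 of 8 for stellate cells, 0 of 1 for lymphocytes, 1 of 2 for erythroid cells and 0 of 1 for exocrine pancreas, of whose 7 listed genes found 2 were at 0 in all libraries. Reads of Xist (9042, 8121, 6201 and 6990 scaled reads in time order) and of 4 Y-linked genes (889, 692, 441 and 732 scaled reads in sum) were present in every library.

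Transcript levels of the measured members spanned more than 2 orders of magnitude in RPKM, and glutathione transferases held the top of the range. Mgst1, a membrane-bound glutathione transferase of the endoplasmic reticulum and mitochondria, stood at 1746, 1858, 1870 and 1190 RPKM in time order. Gstm1, the most abundant mu-class enzyme here, stood at 1043, 1663, 1369 and 1707 RPKM, and Gsta3, an alpha-class enzyme that detoxifies aflatoxin epoxide in mice, at 879, 991, 733 and 779 RPKM. Mgst1 lay above Gstm1 at CT22, CT28 and CT34 and below it at CT40, and both lay above Gsta3 in every library. Summed over the soluble GSTs, levels were 3823, 4358, 3608 and 4576 RPKM.

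**Figure D1:**
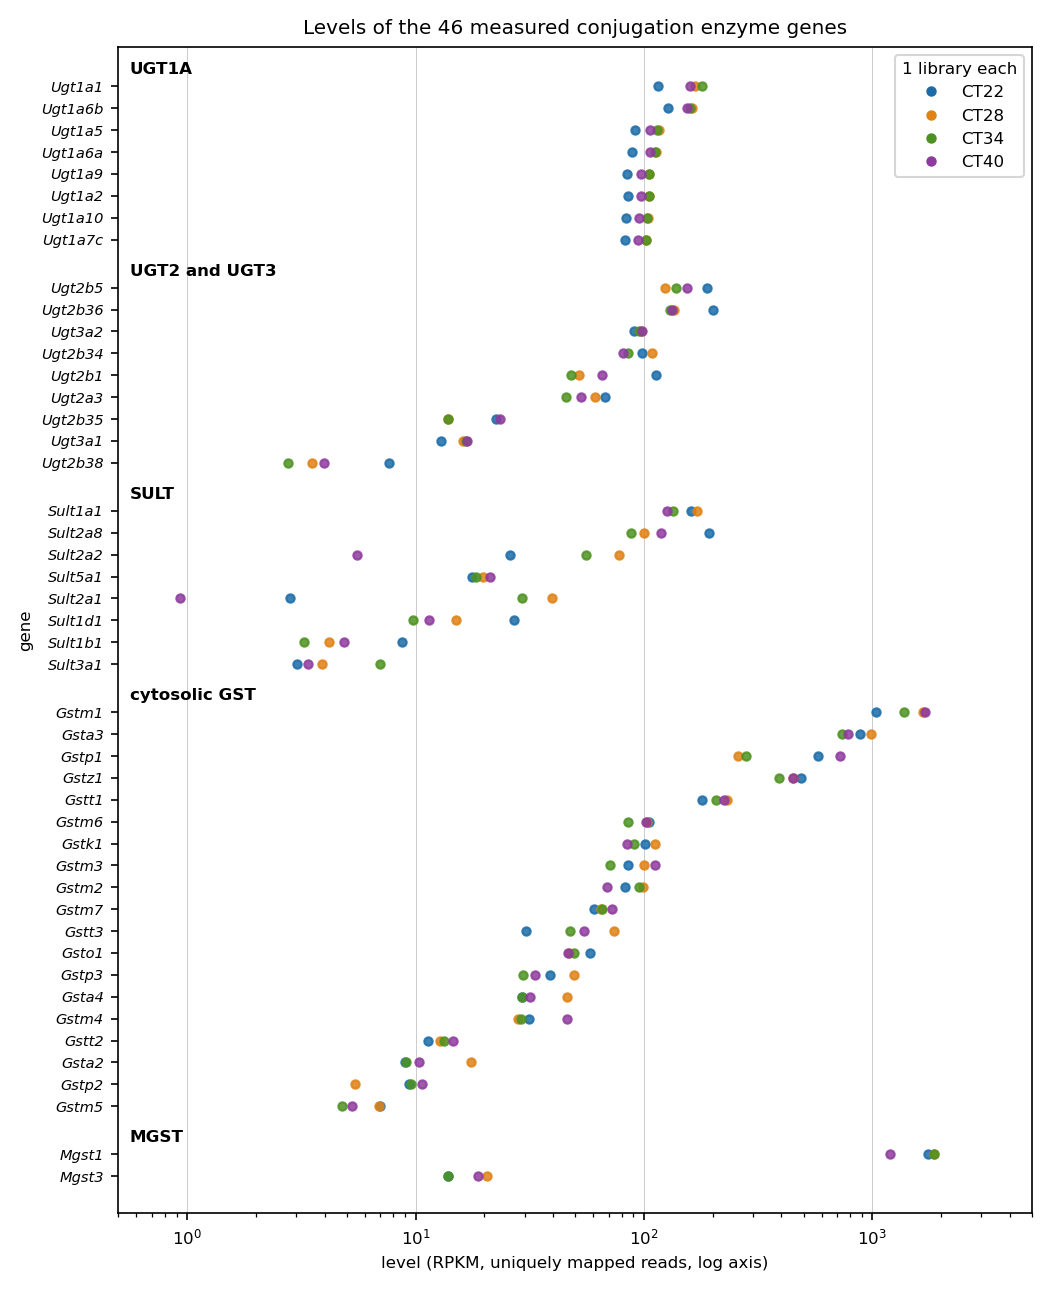
Level of each of the 46 measured members in RPKM (log axis), 1 point for each library (CT22, CT28, CT34, CT40), ordered within families by mean level. Sult2a1 spreads from 0.93 to 39.7 RPKM, while Ugt3a2 stays between 90.8 and 98.2 RPKM.

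The highest library was at least 2-fold above the lowest for 11 of the 46 measured members, against 12.6% of all measured genes. Both shares describe libraries without replicates. Ranges and ratios between libraries, here and below, are of TMM-scaled reads. They can differ in size and in highest library from the RPKM values printed beside them. The 11 were 6 of 8 sulfotransferases, 2 of 9 UGT2 and UGT3 genes and 3 of 19 soluble GSTs, with none of 8 UGT1A genes and none of 2 microsomal GSTs. The median log2 range was 0.65 over members and 0.53 over all measured genes, and by family it was 1.49 for sulfotransferases, 0.77 for UGT2 and UGT3, 0.72 for microsomal GSTs, 0.63 for soluble GSTs and 0.25 for UGT1A. Without the CT22 library 5 of the 46 kept a 2-fold range, against 3.25% of all measured genes, namely Sult2a1, Sult2a2, Sult3a1, Gstp1 and Gsta2. After removal of the trend in GC and length 6 did, against 7.89% of all measured genes: those 5 and Gstt3.

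CT28 was the highest library for 26 of the 46 members, against 16.9% of all measured genes, and CT34 the lowest for 23 of 46, against 19.6%. The 8 UGT1A transcripts share exons and were all highest at CT28, and with that locus counted once CT28 was highest for 19 of 39. Scaled by total gene reads in place of TMM, CT28 was highest for 18 of 46, against 11.8% of genes. After that removal CT28 was highest for 26, against 18.5% of genes, and CT34 lowest for 12, against 20.3%.

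The Ugt1a genes lie within 164.6 kb of chromosome 1 (mm9, chr1:89951986-90116577), where each isoform has a first exon of its own and all splice into the same downstream exons. The deposited transcript values therefore hold reads of the shared exons, and the 8 transcripts had mean levels of 95.2 to 156 RPKM. Their first exons, which are separate stretches of the genome, differed far more. The first exon of Ugt1a1 (chr1:90108534-90109446), the enzyme that conjugates bilirubin, stood at 123, 233, 287 and 245 RPKM and made up 64.9% of the sum over the 8 first exons. CT22 was the lowest library and CT34 the highest, with 3092 and 6435 reads. The scaled ratio of CT34 to CT22 was 2.03 (95% interval 1.94 to 2.12, exact conditional, which like all intervals here covers counting error only). The whole Ugt1a1 transcript stood at 115, 167, 180 and 160 RPKM. In scaled reads its range was 1.37-fold (1.33 to 1.40), between CT28 and CT22. The 3' part of this transcript alone had 6734, 7568, 6910 and 6283 scaled reads. First exons lie at the 5' end, and coverage of the 5' part relative to the 3' part was lowest in the CT22 library. The part of this in the first-exon ratios, here and in the next paragraph, was not tested.

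The other first exons followed at a distance. Ugt1a6a and Ugt1a6b, a pair of enzymes for planar phenols, stood at 27.3, 41.8, 40.7 and 53.7 RPKM and at 27.3, 43.7, 37.0 and 54.9 RPKM in their larger first exons. Both were lowest at CT22 and highest at CT40, by 1.72-fold (1.56 to 1.90) and 1.76-fold (1.60 to 1.94). These 2 exons resemble each other, and with shared reads included their levels were 2.46 and 2.38 times as high. The first exon of Ugt1a5 stood at 24.7, 40.9, 34.8 and 36.2 RPKM, highest at CT28. That of Ugt1a9, an isoform for phenols and fatty acids, stood at 1.73, 2.42, 4.85 and 2.61 RPKM, with CT34 at 2.42-fold of CT22 (1.69 to 3.54). Ugt1a2 lay lower, at 1.31, 0.61, 1.15 and 0.81 RPKM, and Ugt1a7c lower again, at 0.26, 0.15, 0.29 and 0.35 RPKM. Ugt1a10 had 8 first-exon reads in all libraries together, fewer than 10, so no ratio is read from it. Without shared reads, the order of mean first-exon levels was Ugt1a1, Ugt1a6a, Ugt1a6b, Ugt1a5, Ugt1a9, Ugt1a2, Ugt1a7c and Ugt1a10. With them Ugt1a2 came before Ugt1a9, and the level of Ugt1a10 was 31.9 times as high. The ranges of Ugt1a6a, Ugt1a6b and Ugt1a5 over the libraries overlapped.

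Splice junctions are a separate deposited measure. Reads joining any position to the common exon at chr1:90111619 came to 299, 381, 384 and 449, and 1439 of the 1513 came from the ends of the 8 first exons above. Ugt1a1 gave 219, 268, 301 and 299 of them, or 73.2%, 70.3%, 78.4% and 66.6% of each library's total. Ugt1a6a gave 148 in all, Ugt1a6b 133 from its larger first exon, Ugt1a9 58 and Ugt1a2 11. Another 46 reads came from the end of the small first exon of Ugt1a6b. Ugt1a1 thus led in junctions as in first-exon levels. The annotated end of the Ugt1a5 first exon gave none, a count that allows up to 3, while that exon held 3226 reads. A further 15 reads left from a position within it.

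**Figure D2:**
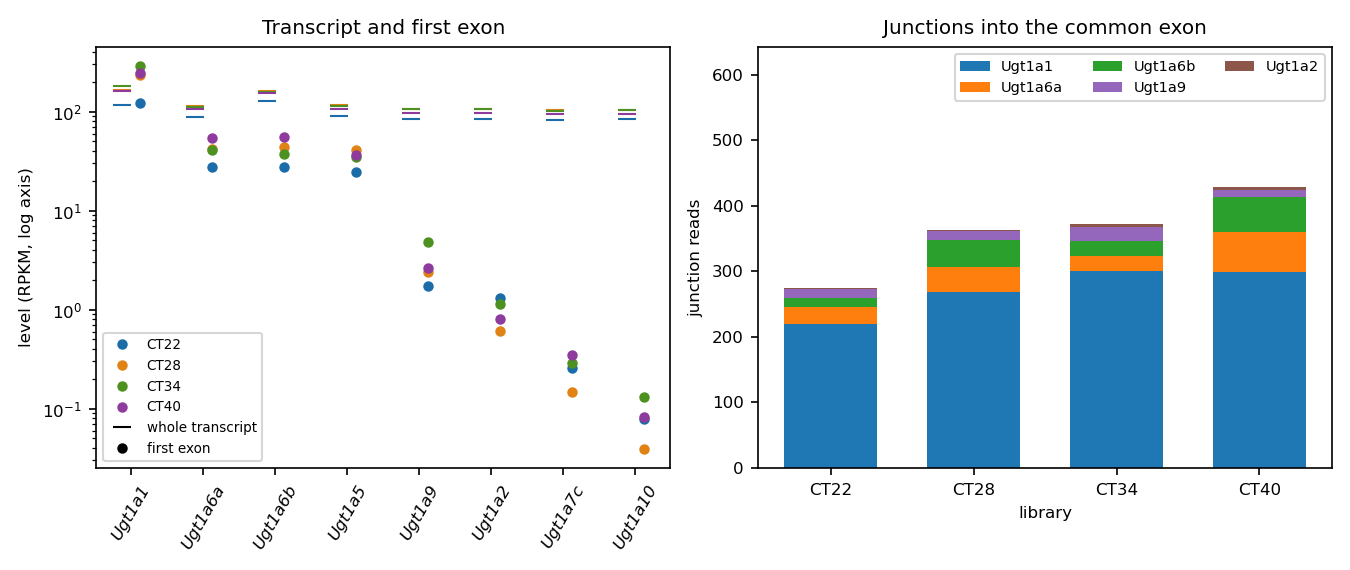
Left, level in RPKM (log axis) of each Ugt1a whole transcript (bars) and first exon (points) in the 4 libraries. Right, junction reads from each first exon with at least 10 such reads into the common exon, stacked by library; Ugt1a1 supplies 219 to 301 reads in each library.

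Of the UGT2 and UGT3 genes, enzymes for steroids, bile acids and drugs, the 3 highest on average were Ugt2b5, Ugt2b36 and Ugt3a2. Ugt2b5 stood at 189, 123, 138 and 154 RPKM and Ugt2b36 at 200.4, 135, 130 and 133 RPKM, both highest at CT22. Ugt3a2, whose family uses sugars other than glucuronic acid, stood at 90.8, 97.4, 95.6 and 98.2 RPKM. In scaled reads it had the narrowest range of all measured members, 1.11-fold (1.07 to 1.15), between CT28 and CT34. Ugt2b1 and Ugt2b38 were the 2 with ranges of 2-fold or more. Ugt2b1 (chr5:87345664-87355528, minus strand) had 8265, 3594, 3059 and 4202 scaled reads, and CT22 was 2.70-fold above CT34 (2.59 to 2.82). Ugt2b38 (chr5:87838967-87853228, minus strand) had 417, 182, 130 and 189 scaled reads, with CT22 at 3.20-fold of CT34 (2.62 to 3.94). In both genes CT22 stood above the other 3 libraries. Ugt2b38 shares much of its sequence with other UGT2 genes, and in the values that include shared reads its ratio of CT22 to CT34 was 1.80.

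Intron reads of Ugt2b1, which can come from unspliced RNA, were 688, 124, 60.1 and 106 in scaled reads, and those of Ugt2b38 were 129, 14.8, 8.15 and 14.3. In introns as in exons CT22 was the highest library and CT34 the lowest for both genes. Over all genes, too, intron reads per 100 gene reads were highest at CT22 (23.7) and lowest at CT34 (16.5). The GC and length trend was not removed from intron reads, and their origin was not tested. Counted over spliced junctions alone, the ratio of CT22 to CT34 was 1.99 for Ugt2b1 and 4.19 for Ugt2b38.

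These genes are part of a 701.8 kb stretch of chromosome 5 (chr5:87318795-88020636) that holds 13 members of the UGT2 and SULT1 families and no other gene of the RefSeq set. Of its 9 measured members, 8 were highest at CT22, against 33.7% of all measured genes. All 9 were higher at CT22 than at CT34 (47.0% of all measured genes), with a median log2 ratio of 0.90, and 4 were at least 2-fold higher (3.06%). Sult1b1, a thyroid hormone sulfotransferase, had 655, 295, 212 and 317 scaled reads, with CT22 at 3.09-fold of CT34 (2.64 to 3.63). Sult1d1, a sulfotransferase for catecholamines, had 1853, 981, 582 and 691, with CT22 at 3.18-fold of CT34 (2.89 to 3.50). For both, CT22 was the highest library and CT34 the lowest. On the 3' part alone the ratio of Sult1d1 was 5.02. Their introns held few reads, 49.1, 19.8, 23.4 and 44.8 scaled reads for Sult1b1 and 169, 69.2, 27.5 and 66.7 for Sult1d1.

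The GC content of the transcripts in this stretch was 32.9% to 41.6%, against a median of 50.7% over all measured genes, and the GC and length trend was largest in the CT22 library. With the trend removed, 8 of the 9 were still higher at CT22 than at CT34, with a median log2 ratio of 0.35, and none reached 2-fold. CT22 was then the highest library for 4 of the 9, CT28 for 3 and CT40 for 2. The ratio of CT22 to CT34 went to 1.86 for Ugt2b1, 1.95 for Ugt2b38, 1.73 for Sult1b1 and 1.27 for Sult1d1. These 4 genes are therefore 2-fold higher at CT22 only without that correction.

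**Figure D3:**
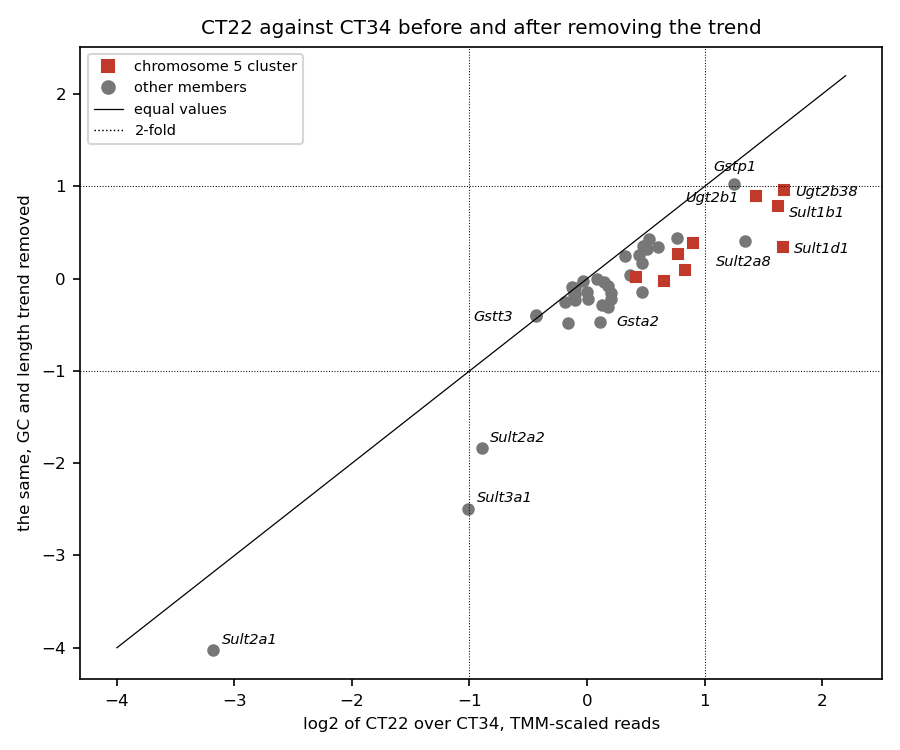
Log2 ratio of CT22 to CT34 for the 46 measured members before (horizontal) and after (vertical) removal of the GC and length trend. Squares mark the 9 measured genes of the chromosome 5 stretch, whose median goes from 0.90 to 0.35, and the line marks equal values.

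The largest differences among all members were in the Sult2a family of chromosome 7 (chr7:14209316-15078275), enzymes that sulfate hydroxysteroids and bile acids. Of these, Sult2a1 and Sult2a2 are known to be more abundant in female than in male mouse liver. Sult2a1 (chr7:14381596-14422759, minus strand) had 82.6, 1102, 748 and 23.8 scaled reads. CT28 and CT34 were high and CT22 and CT40 low, and CT28 was 46.2-fold above CT40 (31.2 to 71.8). The same ratio was 92.8 on the 3' part of the transcript alone and 66.8 on junction reads. Sult2a2 (chr7:14318855-14364985, plus strand) had 552, 1559, 1028 and 103 scaled reads in the same order of libraries, with CT28 at 15.2-fold of CT40 (12.5 to 18.6). Introns held 56.5, 249, 85.5 and 4.77 scaled reads for Sult2a1 and 192, 256, 119 and 20.01 for Sult2a2, so that CT28 was highest and CT40 lowest in introns as well. Sult2a5, below the level for ratios, had 30, 99, 46 and 0 reads, where 0 allows up to 3, and with shared reads included 61.7, 122, 77.4 and 6.67 scaled reads. Sult2a3 had 3, 12, 6 and 0.

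Sult2a8, another member of the family, did not share this order. It had 11735, 5774, 4622 and 6303 scaled reads, highest at CT22 and 2.54-fold above CT34 (2.45 to 2.63), while CT28 stood at 0.92-fold of CT40 (0.88 to 0.95). Its intron reads lay closer together, at 4116, 3888, 3605 and 4820 scaled reads, with CT40 the highest. The ratio of CT22 to CT34 was 3.67 on the 3' part alone, and 1.33 with the trend removed. The coding sequence of Sult2a1 is identical to that of Sult2a2 at 572 of 582 aligned bases (98.3%), to that of Sult2a5 at 811 of 855 (94.9%) and to that of Sult2a8 at 611 of 828 (73.8%). The first 120 coding bases are shown to let the reader see how far apart the 2 transcripts with different time orders are. Capitals mark the 47 bases at which they differ, and positions count from 1 at the start codon (GENCODE transcripts of GRCm38). Over the same stretch Sult2a1 and Sult2a2 have 0 differences.
Sult2a1: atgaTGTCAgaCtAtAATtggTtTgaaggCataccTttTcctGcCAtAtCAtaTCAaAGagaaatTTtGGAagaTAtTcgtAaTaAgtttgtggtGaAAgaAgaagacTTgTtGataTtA
Sult2a8: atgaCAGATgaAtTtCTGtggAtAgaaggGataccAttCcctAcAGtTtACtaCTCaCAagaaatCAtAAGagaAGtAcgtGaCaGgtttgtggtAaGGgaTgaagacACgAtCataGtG

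Among the other sulfotransferases, Sult1a1, the main phenol sulfotransferase, had the highest mean level, at 161, 171, 135 and 126 RPKM, with a range of 1.47-fold (1.41 to 1.53) in scaled reads. It was followed by Sult2a8 at 193, 100.4, 87.6 and 119 RPKM and Sult2a2 at 25.9, 77.4, 55.7 and 5.53 RPKM. Sult3a1, an amine sulfotransferase, had 95.1, 117, 191 and 93.4 scaled reads, with CT34 at 2.05-fold of CT40 (1.60 to 2.64) and the other 3 libraries between 93.4 and 117. Its reads are few, and its ratio of CT34 to CT22 was 2.01, and 5.63 with the GC and length trend removed, at a GC content of 34.2%. Sult5a1 was among the steadiest members, at 17.6, 19.7, 18.4 and 21.2 RPKM.

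**Figure D4:**
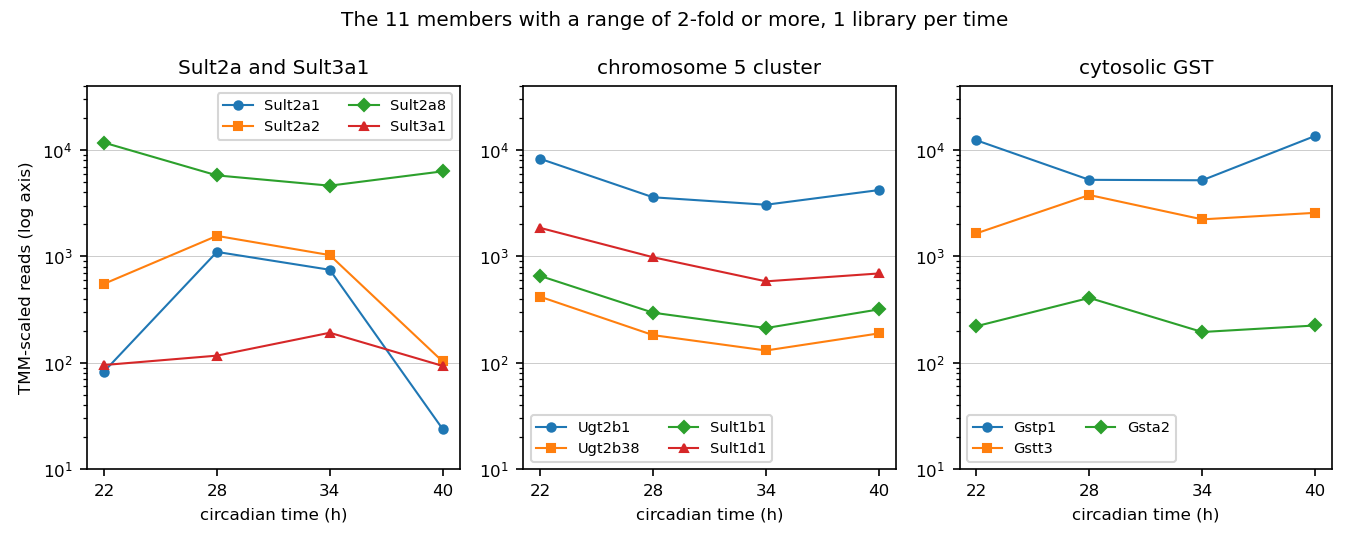
TMM-scaled reads (log axis) against circadian time in hours for the 11 measured members with a range of at least 2-fold, 1 library per time. Sult2a1 and Sult2a2 are high at CT28 and CT34, the 4 genes of chromosome 5 are highest at CT22, and Gstp1 is high at CT22 and CT40.

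Of the soluble GSTs, which here include the mitochondrial and peroxisomal Gstk1, 3 of 19 measured genes had a range of 2-fold or more. Gstp1 (chr19:4035411-4037912, minus strand), the pi-class enzyme, which is more abundant in male than in female mouse liver, had 12343, 5245, 5196 and 13563 scaled reads. CT22 and CT40 were high and CT28 and CT34 low, the reverse of Sult2a1. CT40 was 2.61-fold above CT34 (2.53 to 2.70), CT22 was 2.38-fold above CT34 (2.30 to 2.46), and CT28 stood at 0.39-fold of CT40 (0.37 to 0.40). Gstt3, a theta-class enzyme, had 1648, 3775, 2229 and 2568 scaled reads, with CT28 at 2.29-fold of CT22 (2.16 to 2.43). Gsta2, an alpha-class enzyme, had 221, 407, 194 and 224 scaled reads, with CT28 at 2.09-fold of CT34 (1.76 to 2.50). In both, CT28 stood above the other 3 libraries. Removal of the trend left the ranges at 2.75 for Gstp1, then between CT40 and CT28, 2.22 for Gstt3, and 2.39 for Gsta2, then between CT28 and CT22.

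The other 16 measured soluble GSTs had ranges of 1.12-fold to 1.83-fold. Of the abundant ones, Gstm1 ranged over 1.51-fold (1.49 to 1.53), lowest at CT22, and Gsta3 over 1.47-fold (1.45 to 1.5), highest at CT28. All 7 Gstm genes are neighbours within 149.0 kb of chromosome 3 (chr3:107698772-107847777) and were measured, and none had a 2-fold range. They did not share a highest library: 2 were highest at CT22, 2 at CT28 and 3 at CT40, and 5 of the 7 were lowest at CT34. Their transcripts have a GC content of 50.5% to 53.6%.

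Of the microsomal enzymes, Mgst1 had 47402, 47691, 44033 and 28237 scaled reads, with CT40 below the other 3 libraries and CT28 at 1.69-fold of CT40 (1.66 to 1.71). Mgst3, an enzyme that can make leukotriene C4, stood at 13.9, 20.5, 13.9 and 18.8 RPKM, with a range of 1.61-fold (1.36 to 1.92) in scaled reads. Mgst2 had 0 or 1 read in each library.

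For 19 of the 65 members, 11 of them measured, the upper deposited value was more than 10% above the lower on average, and their levels are uncertain. Among all measured genes this held for 7.77%. Just inside that limit was Sult3a2, whose upper value was 1.16 times the lower, and just outside were Ugt1a2, Ugt1a5 and Gsta2 at 1.10, 1.10 and 1.09 times. Gstp2 stood furthest apart, with lower values of 9.37, 5.41, 9.54 and 10.6 RPKM and upper values of 829, 569, 511 and 1145 RPKM, 87.4 times the lower on average. Its close copy Gstp1 had lower values of 576, 259, 280 and 724 RPKM and upper values of 1652, 930, 886 and 2102 RPKM, 3.03 times the lower. In both columns Gstp1 was high at CT22 and CT40, and its range was 2.61-fold in the lower and 2.39-fold in the upper values. The order of Gstp2 in the lower values was different, at 203, 111, 179 and 201 scaled reads. The 2 coding sequences are identical at 618 of 630 bases (98.1%). Within them a read can be told apart only at the 12 differing bases. Which bases, coding or not, decided the assignment of reads was not examined. The first 120 coding bases are shown because 6 of the 12 differing bases, in capitals, lie there.
Gstp1: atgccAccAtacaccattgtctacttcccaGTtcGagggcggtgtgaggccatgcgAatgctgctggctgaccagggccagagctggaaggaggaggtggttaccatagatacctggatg
Gstp2: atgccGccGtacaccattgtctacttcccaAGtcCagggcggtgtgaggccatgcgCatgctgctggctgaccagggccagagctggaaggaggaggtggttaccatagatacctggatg

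Ugt2b38 had upper values of 54.7, 36.8, 35.0 and 41.7 RPKM, 9.39 times its lower values, and shares 97.0% of aligned coding bases with Ugt2b5, whose upper values were 1.38 times the lower. Ugt3a1 was at 2.01 times, sharing 93.4% with Ugt3a2. Gstm3 was at 1.74, Mgst1 at 1.32, Gstm2 at 1.29 and Gstm1, Ugt1a6a and Ugt1a6b each at 1.22 times. In these 9 genes the range by upper values was 1.80-fold at most. The 8 set apart below the level for ratios were Gsta1, Sult2a3, Sult2a4, Sult2a5, Sult3a2, Ugt2a1, Ugt2a2 and Ugt2b37.

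**Figure D5:**
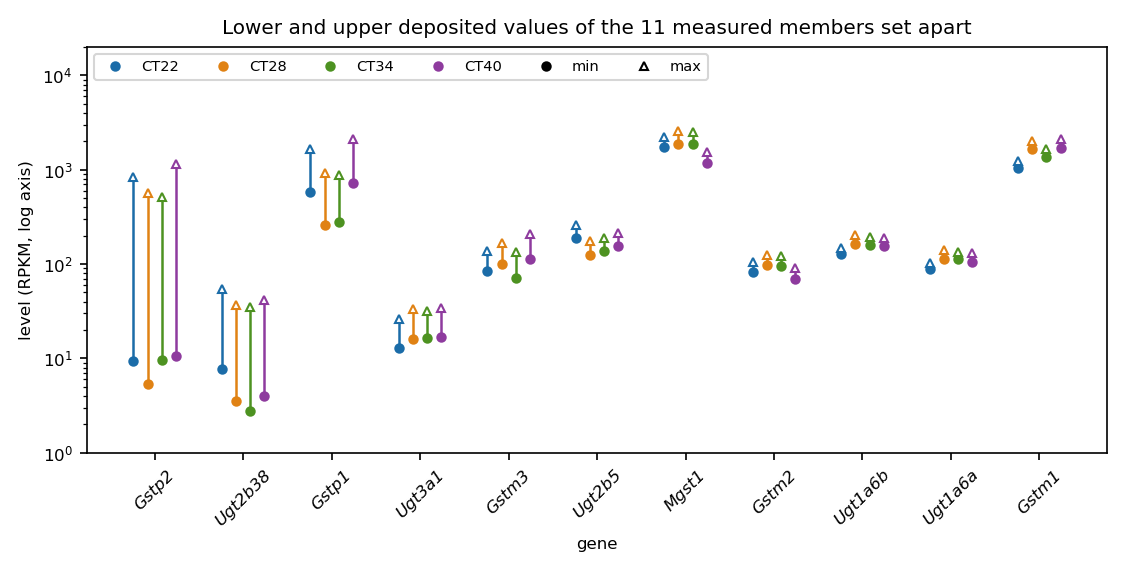
Lower (filled circles) and upper (open triangles) deposited values in RPKM (log axis) of the 11 measured members whose upper value exceeds the lower by over 10%, in each library. For Gstp2 the gap is 87.4 times on average and for Gstm1 1.22 times.

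The 19 members below the level for ratios had mean reads of at most 98.75 and mean levels of at most 3.09 RPKM, and 8 of them averaged under 3 reads. Sult1c2 was the closest to the limit, with 121, 107, 45 and 122 reads, followed by Ugt2b37 with 115, 81, 88 and 47 and Sult2a7 with 46, 96, 57 and 95. Sult1e1, the oestrogen sulfotransferase, had 6, 14, 5 and 2 reads, and Gsta1 had 3, 3, 5 and 3. The cholesterol sulfotransferase Sult2b1 and Sult4a1, a gene of the brain, had at most 2 reads in any library. The others were Gsto2, Gstt4, Mgst2, Sult2a3, Sult2a4, Sult2a5, Sult2a6, Sult3a2, Sult6b1, Sult6b2, Ugt2a1 and Ugt2a2.

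Times 12 h apart were compared within each pair of libraries. Between CT22 and CT34, 8 of the 46 measured members differed by 2-fold or more, against 6.83% of all measured genes. CT22 was higher for 6 (3.06% of all genes), namely Gstp1, Sult1b1, Sult1d1, Sult2a8, Ugt2b1 and Ugt2b38, and lower for 2 (3.77%), Sult2a1 and Sult3a1. The median log2 ratio was 0.19 over members and -0.04 over all measured genes, and 31 of 46 members were higher at CT22 against 47.0% of genes. Once that trend in GC and length was taken out, the median was -0.06 and 4 members differed by 2-fold, against 3.82% of genes, Gstp1 higher at CT22 and Sult2a1, Sult2a2 and Sult3a1 lower. Between CT28 and CT40, 3 members differed by 2-fold or more, against 2.24% of genes: Sult2a1 and Sult2a2 were higher at CT28 (1.2% of genes) and Gstp1 lower (1.04%). The median log2 ratio was 0.20 over members and -0.01 over all measured genes, and 34 of 46 were higher at CT28 against 49.2% of genes.

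The genes around the members were described by lists, as the number of measured genes with a 2-fold range, beside the 12.6% of all measured genes. The GC and length trend was not removed from the values of these lists, here and below. This number was 1 of 3 for UDP-glucuronate supply, 1 of 5 for PAPS supply and 1 of 10 for glutathione supply, with median log2 ranges of 0.77, 0.66 and 0.47. The 3 genes were Ugp2, which makes UDP-glucose, with 3789, 2229, 1769 and 1924 scaled reads, highest at CT22, Slc26a1, a sulfate transporter, with 3808, 6166, 6145 and 7837, lowest at CT22, and Cbs, which starts the making of cysteine, with 7793, 13098, 17437 and 16143, also lowest at CT22. The PAPS synthase Papss2 had 8158, 9985, 5435 and 8492. None of these 3 lists held more than 1 gene with a 2-fold difference for either 12 h pair.

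Of 14 measured genes of methylation, acetylation, amino acid conjugation and epoxide hydrolysis, 4 had a 2-fold range, all of them methyltransferases highest at CT22, and the median log2 range was 0.72. Inmt had 14339, 6120, 3421 and 5721 scaled reads, Hnmt 594, 328, 165 and 285, Tpmt 1211, 703, 452 and 527, and Nnmt 1933, 1334, 1149 and 788. Of 7 measured genes of conjugate export and cleavage, 2 had a 2-fold range, the transporters Abcc3, with 3842, 7193, 7795 and 10175 scaled reads, and Abcc6, with 2476, 3863, 3870 and 5044. Both were lowest at CT22 and highest at CT40, and the median log2 range of the 7 was 0.79.

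Among regulators 3 of 16 had a 2-fold range, with a median log2 range of 0.55. Nfil3, a repressor at D-box elements, had 459, 825, 1034 and 651 scaled reads, highest at CT34, and Tef, an activator at the same elements, 1367, 1470, 682 and 932, lowest at CT34. Of the NRF2 targets outside the members 1 of 11 did, Osgin1, with 3154, 7647, 8144 and 9595, while Nqo1 had 212, 135, 113 and 193. The median log2 range of those 11 was 0.34. Of the targets of CAR, PXR and AHR 6 of 10 did, with a median log2 range of 1.18, among them Cyp2b10 with 998, 1411, 439 and 707, Cyp2c55 with 1090, 600, 387 and 599, and Alas1, the first enzyme of haem synthesis, with 20979, 20432, 10769 and 7839. The zonation lists had 1 of 10 pericentral genes, Lect2, and 3 of 10 periportal genes, Hal, Pck1 and Arg1, with a 2-fold range, and median log2 ranges of 0.63 and 0.70.

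Genes known to differ between male and female mouse liver had median log2 ranges of 1.26 where male-biased and 1.60 where female-biased, against 0.53 over all measured genes. A 2-fold range was found in 7 of 11 measured male-biased genes. Of the 11, 10 were higher at CT22 than at CT34 (47.0% of all measured genes). At CT28, 1 was higher than at CT40 (49.2% of all measured genes) and 10 were lower. Selenbp2 had 7602, 2347, 2066 and 8473 scaled reads, Cyp4a12a 2635, 757, 986 and 3226, and Slco1a1 2877, 835, 1025 and 2900. In all 3, as in Gstp1, CT22 and CT40 lay above CT28 and CT34. Of 9 measured female-biased genes 7 had a 2-fold range. Of the 9, 2 were higher at CT22 than at CT34 (47.0% of all measured genes), with a median log2 ratio of -0.78. Higher at CT28 than at CT40 were 6 (49.2%), with a median log2 ratio of 0.52. No single order of libraries held for all of them. Cux2 had 181, 165, 89.6 and 535 scaled reads, with CT40 the highest. Cyp17a1 had 1080, 3601, 2392 and 1754, highest at CT28, and Cyp2a4 had 2001, 2132, 3443 and 1127, highest at CT34. The part of the sex of the pooled animals in these values was not tested.

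Promoter windows of 250 bases before to 50 after the start were given by RefSeq (GRCm38.p6) for 57 of the 65 members. Only the 250 bases before the start were searched, on both strands, in 69 member windows among the 32851 windows searched. The E-box CACGTG, the element that CLOCK and BMAL1 bind, was in 0 of the 69 member windows and in 6.02% of all windows. The D-box TTATGTAA was in 1 (1.45%, against 0.819% of all), that of Ugt2b1, and its variant TTACGTAA in 0 (0.113%). The AP-1 element TGAGTCA was in 7 (10.1%, against 4.46%), those of Gstm5, Gstp1, Gstp2, Mgst2, Sult2b1, Ugt2a2 and Ugt2b37. The antioxidant response element core TGACNNNGC was in 4 (5.8%, against 10.2%), the STAT element TTCNNNGAA in 4 (5.8%, against 7.02%) and the nuclear receptor element AGGTCA in 11 (15.9%, against 14.0%). The AP-1 element does not overlap the D-box or the E-box in letters but can lie within an antioxidant response element.

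Of the genes with a 2-fold range, Gstp1 had an AP-1 element, Ugt2b1 the D-box, Sult3a1 a STAT element, and Sult1b1, Sult2a8 and Ugt2b38 the nuclear receptor element. Sult2a1 and Sult2a2 had no window in the table. The last 150 bases before the start are shown for Gstp1 and Ugt2b1 and for Gstp2, the copy of Gstp1, so that the element, in capitals, can be seen beside its surroundings. The windows of Gstp1 and Gstp2 are identical at 208 of 235 aligned bases of 250 (88.5%) and carry the same element 74 and 89 bases before the start. In Ugt2b1 the D-box lies 59 bases before the start. A link between any of these elements and the order of the libraries was not tested.
Gstp1 promoter, chr19:4037913-4038062, minus strand: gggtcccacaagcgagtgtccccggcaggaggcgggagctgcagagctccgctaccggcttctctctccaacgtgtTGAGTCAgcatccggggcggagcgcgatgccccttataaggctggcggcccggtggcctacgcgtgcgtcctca
Gstp2 promoter, chr19:4042222-4042371, minus strand: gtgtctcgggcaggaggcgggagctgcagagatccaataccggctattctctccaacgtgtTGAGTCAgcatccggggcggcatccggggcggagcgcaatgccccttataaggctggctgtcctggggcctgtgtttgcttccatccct
Ugt2b1 promoter, chr5:86926504-86926653, minus strand: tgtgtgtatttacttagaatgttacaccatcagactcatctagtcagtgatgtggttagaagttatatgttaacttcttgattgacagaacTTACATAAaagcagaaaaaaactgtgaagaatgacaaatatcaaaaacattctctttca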

How the data were processed

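PolyA RNA of 4 liver pools was analysed. The authors deposited, per library, tables of transcripts, exons and introns with a lower (min) and an upper (max) value whose unit no source used here states, and lists of junction read counts, which per the file headers come from the aligner RUM (version not stated). Coordinates of the files are on mm9, a build named in the submitters' processing notes. The deposited values behaved as RPKM. Multiplied by length and divided by 1 step per library, 99.78 to 99.83% of the nonzero min and 99.64 to 99.7% of the nonzero max values of transcripts were whole, with a tolerance of 0.05 read after rounding. They were therefore treated as other values from which read counts were recovered. That min means uniquely mapped reads and max adds shared ones is inferred from the values. The implied denominators were 27539200, 27546200, 24520700 and 26407600 reads.

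Of 115699 transcripts, 26556 had a RefSeq ID and 25895 of these matched a symbol. Recovered reads were scaled by TMM (edgeR 4.0.16, R 4.3.3), to which "scaled reads" refers. A mean of 100 reads was the minimum for ratios, in which fewer than 3 reads count as 3. With 1 library at each time, a 2-fold difference is a description. Ratios have exact conditional (Clopper-Pearson) 95% intervals. They were tried only on simulated counts with counting error alone, which is what they assume. That trial cannot show how they hold for spread between animals or libraries. GC content was known for 98.8% of genes. Named genes are members with a 2-fold range, the 3 highest of each family, first exons with at least 10 reads and up to 4 genes of each list. Values of some single genes of the lists are not reported here. The 12 gene lists and 8 marker lists, like the members, were chosen with earlier results of these data known. Alternatives covered the column used, scaling (also DESeq2 1.42.0 size factors), the filter, the fold, the 3' part of transcripts, junction reads, the GC and length trend and, for the count of 2-fold ranges, each library left out. Strand is not kept by the protocol, and reads of genes overlapping in opposite directions are not separated. Python 3.11.15, numpy 2.4.6, scipy 1.17.1, pandas 2.3.3, Biopython 1.88 and matplotlib 3.10.9 were used.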

Additional observations from a re-analysis of the deposited data

Results flagged for a closer look

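Junction reads also entered the common Ugt1a exon from positions other than the ends of the 8 first exons counted above, which are the largest of each gene. From chr1:89999953, the end of the small first exon of Ugt1a6b, 15, 11, 7 and 13 reads (46 in all) skipped that gene's larger exon, and from chr1:90062696, within the first exon of Ugt1a5, there were 4, 4, 2 and 5 (15 in all). Both counts are above the 3 reads that a count of 0 allows. They drew attention as signal outside the annotated isoforms, and another 13 such reads came from 7 further positions.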

How the results depend on the processing

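With 1 library per time no value here has a replicate check, and leaving out a library leaves out a time. No paired analysis was possible because each time has 1 library. Of 77 alternative values of the counts and medians over members, 64 kept their direction and stayed within 1.5 times the value given, and 13 did not. The 11 members with a 2-fold range became 19 of 65 with no filter, 6 with the GC and length trend removed, 25 at 1.5-fold and 5 without CT22. It was 11 without CT40 and 9 without CT28 or CT34, the last 2 settings chosen after seeing the data. The 8 members 2-fold apart between CT22 and CT34 became 4 with the trend removed and 15 at 1.5-fold, and the median log2 ratio reversed from 0.19 to -0.057 with the trend removed, and was 0.11 with no filter and 0.37 with Ugt1a counted once, a setting chosen after seeing the data. The 3 members apart between CT28 and CT40 became 8 with no filter and 11 at 1.5-fold, the median over members went from 0.20 to 0.13 with the trend removed, and the 23 lowest at CT34 became 12 with the trend removed. The cause of these shifts was not tested. Of 55 alternative ratios of the 11 named members, 47 stayed at 2-fold or more, none changed direction, and the lowest was 1.27, for Sult1d1 with the trend removed. Scaling by total gene reads without genes of the mitochondrial genome gave no separate value, because none of the genes with a symbol lies on that genome. Depth limits the 19 members under a mean of 100 reads and the low Ugt1a first exons.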
